A study of Caenorhabditis elegans with 12 samples.

Results

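Chaperonins are large ring-shaped complexes that enclose an unfolded protein and release it after ATP hydrolysis. In the cytosol the CCT ring, also called TRiC, is built of related subunits and folds newly made actin and tubulin along with other proteins; the cochaperone prefoldin hands it such substrates. In mitochondria the ring is made of HSP-60, which works with a small HSP10-type lid, and *hsp-60* is widely used in *C. elegans* as a reporter of the mitochondrial unfolded protein response. The 9 chaperonin genes described here were taken by name: *cct-1*, *cct-2*, *cct-4*, *cct-5*, *cct-6*, *cct-7* and *cct-8*, which encode 7 subunits of the cytosolic ring, and *hsp-60* with Y22D7AL.10, which encodes the mitochondrial HSP10-type cofactor. The subunit gene *cct-3* is not among them, so values given over the ring cover these 7 subunits and not the whole ring. The 9 genes are among the 12443 genes measured in every comparison. Only genes present in the comparisons could be taken, so that all 9 passed the low-expression filter follows from the selection.

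RNA was taken from whole day 1 adults of 4 groups, *mdt-15(tm2182)* [*mdt-15(-)*] at 15 °C, *mdt-15(-)* at 25 °C, wild type (Bristol N2) at 15 °C and wild type at 25 °C, with 3 independent biological repeats each. *mdt-15* encodes a subunit of Mediator, the complex that links transcription factors to RNA polymerase, and is known for its role in the expression of lipid metabolism genes. The animals were fed OP50 bacteria. Per the paper's methods, they hatched at a common temperature, were moved to their own as newly hatched larvae and stayed there up to harvest. A temperature difference thus covers larval growth as well as adulthood, but not the animals' own embryonic development. The tables used hold 1 estimate per gene and comparison and no value per library, so values of single libraries cannot be shown and the depth per library is unknown. The standard error of each estimate appears to rest on a spread between repeats that is pooled over all 4 groups, not on the compared groups alone. *mdt-15* mRNA itself was estimated below 0 in *mdt-15(-)* relative to wild type at each temperature, with standard errors of 1.66 at 15 °C and 1.88 at 25 °C on the log2 scale. That is too imprecise to check the labels, and which exons the allele removes was not examined. In whole animals, fewer cells of a type and less RNA per cell cannot be told apart.

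The 9 genes lie on 4 chromosomes (coordinates of WBcel235, the assembly also called ce11). *cct-1* (II, 8185443 to 8187601, plus strand), *cct-4* (II, 8283667 to 8285711, plus strand) and *cct-2* (II, 8927741 to 8929815, plus strand) share chromosome II. *cct-5* (III, 4499188 to 4508114) and *cct-6* (III, 5853530 to 5855687) are on the minus strand of chromosome III. *cct-7* is at V, 1872246 to 1875505, on the plus strand, and *cct-8* at IV, 1087108 to 1093920, on the minus strand. The mitochondrial genes are neighbours, arranged head to head: Y22D7AL.10 (III, 1617151 to 1618929, minus strand) and *hsp-60* (III, 1619742 to 1625803, plus strand) are separated by 812 bases, with 0 annotated genes between them. The exons of *cct-1* overlap those of the antisense gene T05C12.8 by 117 bases (6.26% of the exon bases of *cct-1*), and *cct-7* overlaps the antisense gene *zig-11* by 28 bases (1.24%). No source used here says whether reads were counted by strand, so reads from these stretches cannot be told apart; neither antisense gene passed the expression filter.

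All 9 genes were abundant, with average expression between the 90.4 and 97.6 percentiles of the genes measured. A level for each group was solved from a gene's average expression and its comparisons; it is approximate, is given as log2 cpm (counts scaled to library size), and is divided by exon length where genes are compared. Per kb of exon, *cct-5*, the epsilon subunit, was the highest of the 7 ring genes in every group, at 7.37 in *mdt-15(-)* and 7.82 in wild type at 15 °C, and at 7.19 in *mdt-15(-)* and 7.56 in wild type at 25 °C. *cct-8*, the theta subunit, was the lowest in every group, at 5.11 in *mdt-15(-)* and 5.82 in wild type at 15 °C, and at 4.99 in *mdt-15(-)* at 25 °C, where it was within 0.01 of wild type. Genes of a complex assembled from 1 copy of each subunit in a ring thus spanned a 4.77-fold range of mRNA per kb in *mdt-15(-)* at 15 °C, a 4.60-fold range in *mdt-15(-)* and a 5.90-fold range in wild type at 25 °C, and the narrowest range in wild type at 15 °C. No error can be given for a group's level, so neighbours in this order were not told apart. The mitochondrial genes lay far apart on the same scale: the short transcript of Y22D7AL.10 ranged from 9.15 to 9.32 log2 cpm per kb over the 4 groups and *hsp-60* from 5.69 to 6.49.

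**Figure D1:**
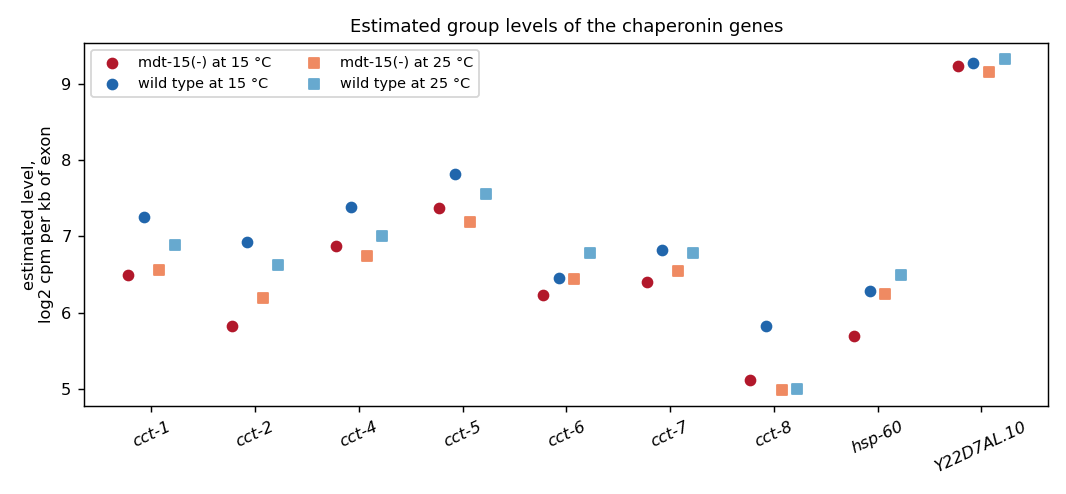
Estimated level of each chaperonin gene (vertical axis, log2 cpm per kb of exon) in *mdt-15(-)* and wild type at 15 °C (circles) and 25 °C (squares); each point is 1 group of 3 repeats and no error is available for it. The *mdt-15(-)* point lies below the wild-type point of the same temperature for all 9 genes, but *cct-8* at 25 °C changes side when differences are centred on the median of all genes or of genes of average log2 cpm 6 to 9, and Y22D7AL.10 at 15 °C with the second of these; Y22D7AL.10 lies above 9 in every group.

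The first question was whether loss of *mdt-15* changes chaperonin expression in the cold. At 15 °C, *cct-1* and *cct-2*, the alpha and beta subunits of the ring, were lower in *mdt-15(-)* than in wild type by 1.70-fold and 2.14-fold. The other 5 ring genes were estimated between 1.16-fold and 1.63-fold lower and did not pass the study's threshold, a fold change over 1.5 with an unadjusted p below 0.05. Neither did *hsp-60* or Y22D7AL.10. Hence 2 of 9 chaperonin genes were called lower and 0 higher; of all 12443 genes, 5.76% were called lower and 17.3% higher. Among the 1449 genes of average log2 cpm 6 to 9, the range that holds all 9, 7.32% were called lower and 6% higher. Over all genes the calls thus lean to higher, and among genes as abundant as the chaperonins they lean slightly to lower.

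The estimated level of *cct-1* was 7.39 log2 cpm in *mdt-15(-)* and 8.15 log2 cpm in wild type at 15 °C, a log2 difference of -0.76 (SE 0.18, 95% interval -1.17 to -0.36, limma, Benjamini-Hochberg adjusted p = 0.0324). This was the only chaperonin gene whose difference at 15 °C held after adjustment over all genes; of all genes, 1.86% were lower and 5.23% higher by an adjusted p below 0.05. *cct-2* had the larger and less precise difference: its level was 6.77 log2 cpm in *mdt-15(-)* and 7.87 log2 cpm in wild type, a log2 difference of -1.10 (SE 0.33, 95% interval -1.83 to -0.37, limma adjusted p = 0.0704). Of all 12443 genes, 5.49% had a log2 difference below that of *cct-2*, so it does not stand at the extreme of the distribution over all genes. Among the 1449 genes of average log2 cpm 6 to 9 it lies in the sparse lower tail. The bin of 0.1 from -1.2, which holds *cct-2*, has 5 of these genes, and the fullest bin, from -0.2, has 137.

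*cct-4*, the delta subunit, was the best measured of the ring, with a standard error of 0.17, which lies at percentile 5.38 of the genes of similar abundance (median 0.35). Its level was 7.76 log2 cpm in *mdt-15(-)* and 8.28 log2 cpm in wild type at 15 °C, a log2 difference of -0.52 (95% interval -0.90 to -0.15, limma adjusted p = 0.0893). The interval leaves out 0, but the fold of 1.44 is under the limit of 1.5, so *cct-4* was not called. With no fold limit, 3 of 9 genes were lower at an unadjusted p below 0.05, beside 7.43% of all genes. *cct-5* had a log2 difference of -0.45 (95% interval -0.91 to 0.01, limma adjusted p = 0.205) and *cct-7*, the eta subunit, of -0.43 (95% interval -0.97 to 0.11, limma adjusted p = 0.306). These intervals reach from a fall larger than that of *cct-4* to slightly above 0.

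The remaining ring genes were the least precise. *cct-8* had a log2 difference of -0.71 at 15 °C, close to that of *cct-1*, but a standard error of 0.61, which is at percentile 86.2 of genes of similar abundance, and its interval ran from -2.07 to 0.65 (limma adjusted p = 0.498). *cct-6*, the zeta subunit, had a log2 difference of -0.21 with a standard error of 0.45 and an interval from -1.21 to 0.78 (limma adjusted p = 0.803). Differences of the size found for *cct-1* and *cct-2* lie inside both intervals, so the data do not separate *cct-6* and *cct-8* from the called subunits. Over the 7 ring genes the median log2 difference was -0.52, with a lowest value of -1.10 and a highest of -0.21; the median over all genes was 0.04 and that over genes of average log2 cpm 6 to 9 was -0.09. All 7 were below 0, against 48.1% of all genes and 57.9% of the genes of similar abundance; subunits of 1 complex measured in the same libraries are not independent.

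The mitochondrial chaperonin was measured with intermediate precision. *hsp-60* had a level of 6.78 log2 cpm in *mdt-15(-)* and 7.37 log2 cpm in wild type at 15 °C, a log2 difference of -0.59 (SE 0.33, 95% interval -1.33 to 0.14, limma adjusted p = 0.297). Y22D7AL.10 had 8.39 log2 cpm in *mdt-15(-)* and 8.43 log2 cpm in wild type, a log2 difference of -0.04 (SE 0.31, 95% interval -0.72 to 0.63, limma adjusted p = 0.950), which became 0.05 when centred on genes of average log2 cpm 6 to 9. The interval of *hsp-60* includes the estimate of Y22D7AL.10, and the difference between these head-to-head genes was not tested.

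**Figure D2:**
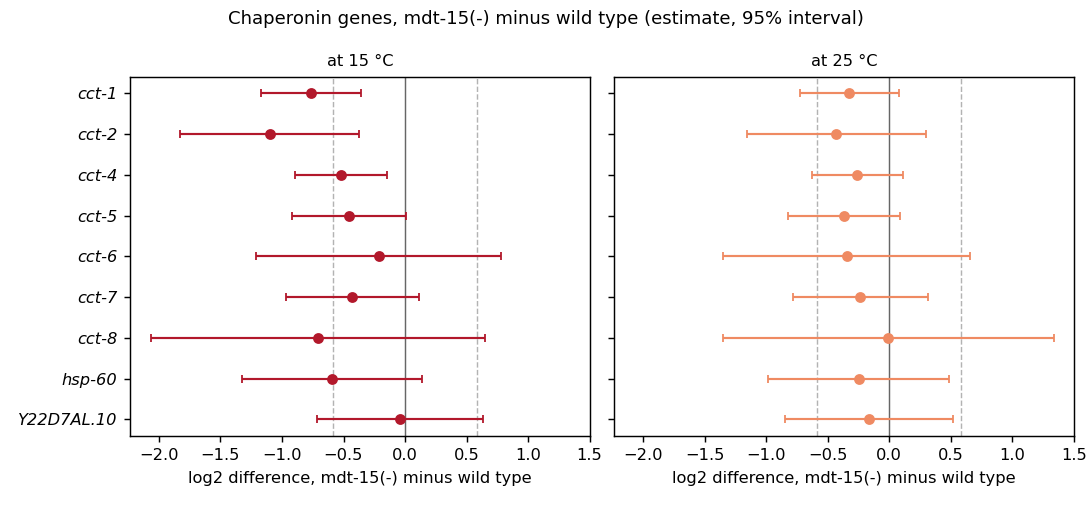
Log2 difference of each chaperonin gene, *mdt-15(-)* minus wild type, at 15 °C (left) and 25 °C (right); points are estimates, bars are 95% intervals from the deposited fit and dashed lines mark a fold of 1.5. At 15 °C the intervals of *cct-1*, *cct-2* and *cct-4* leave out 0, and at 25 °C every interval spans 0.

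At 25 °C the same genotype comparison called 0 of 9 chaperonin genes, against 3.75% of all genes called lower and 5.89% called higher. Every 95% interval spanned 0, so 0 of 9 had an unadjusted p below 0.05 by limma, beside 10.2% of all genes in either direction, and 0 passed the adjusted p, which 1.29% of all genes did as lower and 1.87% as higher. The estimates were all below 0 as deposited, between -0.43 for *cct-2* and -0.01 for *cct-8* on the log2 scale, but *cct-8* lay above 0 once values were centred on the median of all genes (0.02) or of genes of average log2 cpm 6 to 9 (0.09). Of all genes, 53.2% were below 0 at this temperature, and of genes of average log2 cpm 6 to 9, 66.0%. The ring median was -0.32, beside a median of -0.03 over all genes.

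Several subunits were close to each other at 25 °C. *cct-5* had a log2 difference of -0.37 (SE 0.21, 95% interval -0.82 to 0.09, limma adjusted p = 0.720) and *cct-1* of -0.32 (SE 0.18, 95% interval -0.73 to 0.08, limma adjusted p = 0.721). *cct-4* was at -0.26 (SE 0.17), *cct-7* at -0.23 (SE 0.25), *cct-6* at -0.35 (SE 0.45), *hsp-60* at -0.25 (SE 0.33) and Y22D7AL.10 at -0.17 (SE 0.31). For *cct-1*, *cct-4* and *cct-5* these intervals allow a fall of up to 0.82 on the log2 scale and at most a rise of 0.11.

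**Figure D3:**
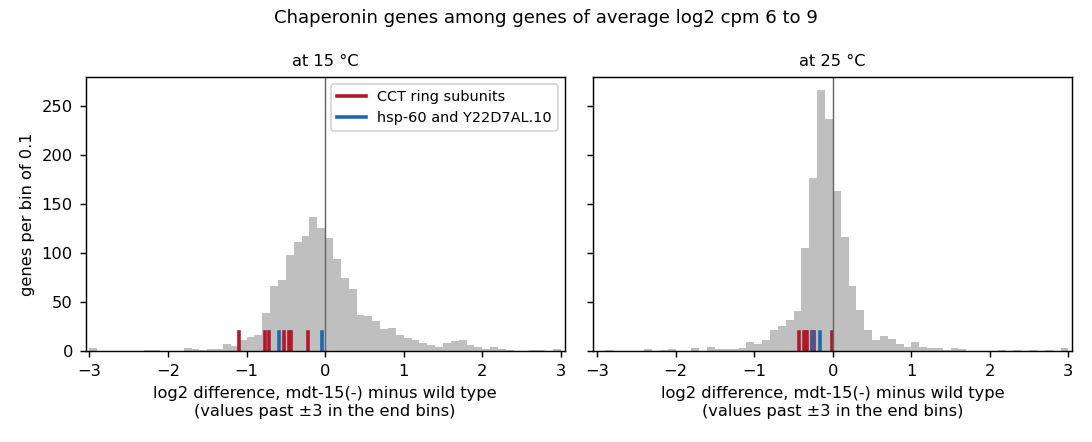
Distribution of the log2 difference, *mdt-15(-)* minus wild type, at 15 °C (left) and 25 °C (right) over the 1449 genes of average log2 cpm 6 to 9 (grey, genes per bin of 0.1), with the 7 ring subunits (red marks) and the mitochondrial genes (blue marks). At 15 °C the ring genes lie between -1.10 and -0.21, inside the lower side of the distribution, and at 25 °C between -0.43 and -0.01.

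Whether the *mdt-15(-)* effect differed between the temperatures was tested directly, as the effect at 15 °C minus the effect at 25 °C. It was called for 0 of 9 chaperonin genes, beside 1.64% of all genes called lower and 5.29% called higher, and 0 of 9 had an unadjusted p below 0.05, beside 6.98% of all genes in either direction. By the adjusted p, 0 of 9 passed, beside 0.0161% of all genes lower and 0.0964% higher. *cct-1* had a difference of -0.44 (SE 0.26, 95% interval -1.01 to 0.13, limma-based adjusted p = 0.763), and *cct-2* of -0.67 (SE 0.46, 95% interval -1.70 to 0.36, limma-based adjusted p = 0.819). The calls of *cct-1* and *cct-2* at 15 °C alone therefore do not show an effect confined to the cold. For *cct-5* the difference was -0.09 with an interval from -0.73 to 0.56, and for *cct-8* it was -0.70 with an interval from -2.61 to 1.21. Over the ring, 6 differences were below 0 and 1, that of *cct-6* (0.13), was above 0; the median was -0.26, beside 0.05 over all genes. *hsp-60* was at -0.34 (SE 0.47) and Y22D7AL.10 at 0.12 (SE 0.43).

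The second question was whether growth temperature alone changes these genes. In *mdt-15(-)*, 15 °C against 25 °C called 0 of 9 chaperonin genes, beside 12.9% of all genes called higher and 5.86% called lower. In wild type the same comparison also called 0 of 9, beside 3.24% higher and 6.26% lower. By the adjusted p, 0 of 9 passed in *mdt-15(-)*, beside 2.1% of all genes higher and 1.2% lower, and 0 of 9 in wild type, beside 0.321% higher and 0.932% lower. Without the fold limit, 0 of 9 genes in *mdt-15(-)* had an unadjusted p below 0.05, beside 19.9% of all genes in either direction, and 1 of 9 in wild type was higher, beside 3.9% of all genes. That gene was *cct-4*, whose log2 difference between 15 °C and 25 °C was 0.12 (SE 0.17, 95% interval -0.25 to 0.49) in *mdt-15(-)* and 0.38 (SE 0.17, 95% interval 0.01 to 0.76, limma adjusted p = 0.473) in wild type. The wild-type value corresponds to 1.31-fold, under the fold limit. *cct-1* followed with -0.08 (SE 0.18) in *mdt-15(-)* and 0.37 (SE 0.18, 95% interval -0.04 to 0.77) in wild type.

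Over the 7 ring genes the median temperature difference was -0.08 in *mdt-15(-)* and 0.30 in wild type, beside 0.03 and 0.04 over all genes. In *mdt-15(-)* 3 ring genes were above 0 and 4 below, between -0.37 for *cct-2* and 0.18 for *cct-5*; centred on genes of average log2 cpm 6 to 9, *cct-1* lay above 0 and the ring median was 0.00159. In wild type 6 were above 0 and 1 below, between -0.33 for *cct-6* (SE 0.45) and 0.83 for *cct-8* (SE 0.61). The largest estimate, that of *cct-8* in wild type, had an interval from -0.52 to 2.18 (limma adjusted p = 0.765). The wild-type comparison shares its 15 °C and its 25 °C libraries with the genotype comparisons, so a high wild-type estimate at 15 °C enters both the temperature difference and the *mdt-15(-)* effect.

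*hsp-60* had the lowest temperature estimate of the 9 genes in *mdt-15(-)*, -0.55 (SE 0.33, 95% interval -1.28 to 0.18, limma-based adjusted p = 0.424), and was at -0.21 (SE 0.33, 95% interval -0.94 to 0.53) in wild type. Its level was 6.78 log2 cpm at 15 °C and 7.33 log2 cpm at 25 °C in *mdt-15(-)*, and 7.37 log2 cpm at 15 °C and 7.58 log2 cpm at 25 °C in wild type. Y22D7AL.10 was at 0.07 (SE 0.30) in *mdt-15(-)* and -0.05 (SE 0.31) in wild type. The estimates for *hsp-60* are below 0 in both genotypes, but neither interval leaves out 0.

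**Figure D4:**
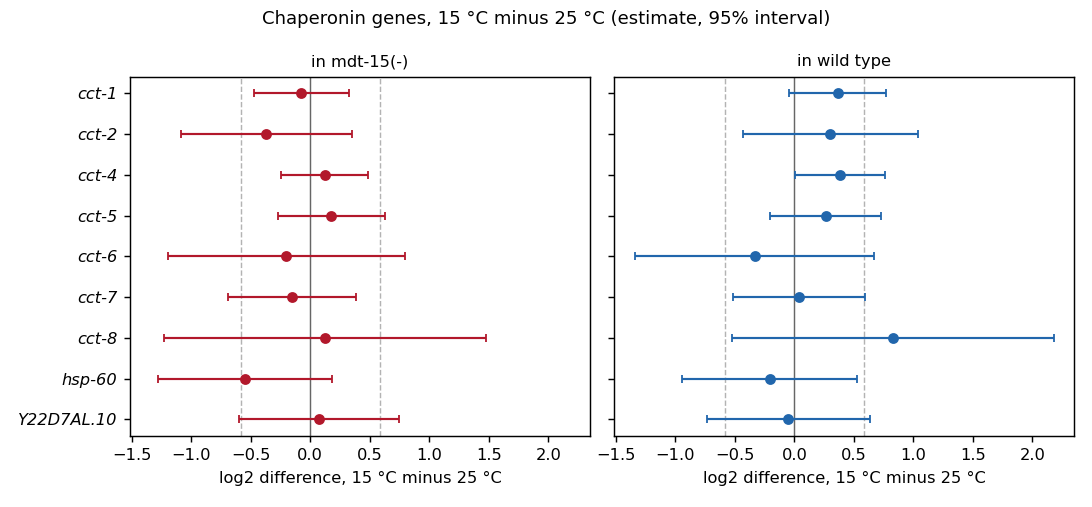
Log2 difference of each chaperonin gene, 15 °C minus 25 °C, in *mdt-15(-)* (left) and wild type (right); points are estimates, bars are 95% intervals and dashed lines mark a fold of 1.5. The interval of *cct-4* in wild type (0.01 to 0.76) is the only one that leaves out 0.

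Genes that work beside the chaperonins were set beside them. Of the 6 prefoldin subunits, 0 were called in any comparison, where the share of all genes called in 1 direction ran from 1.64% to 17.3%. The median log2 difference between *mdt-15(-)* and wild type was -0.08 at 15 °C and -0.23 at 25 °C. Centred on genes of average log2 cpm 6 to 9, the median of the prefoldin genes at 15 °C was 0.02. The best measured of them, *pfd-3*, was chosen after its values were seen: it had -0.55 (SE 0.15, limma adjusted p = 0.059) at 15 °C, a precise difference under the fold limit like that of *cct-4*. Apart from *pfd-3*, the standard errors at 15 °C ran from 0.34 (*pfd-2*) to 0.87 (*pfd-1*). Each of these 95% intervals includes the ring median of -0.52, so the data do not separate these prefoldin genes from the ring. Of 17 measured actin and tubulin genes, the best known substrates of CCT, 2 were called higher and 0 lower in *mdt-15(-)* at 15 °C, where 17.3% of all genes were called higher and 5.76% lower, so the count does not stand above the background. They were the alpha-tubulin gene *tba-7* (2.37, SE 0.33, limma adjusted p = 0.00169) and the beta-tubulin gene *tbb-6* (3.37, SE 0.66, limma adjusted p = 0.0136). At 25 °C *tba-7* (1.08, SE 0.37) and *tbb-6* (2.12, SE 0.61) were called higher and the alpha-tubulin gene *tba-4* (95% interval -1.94 to -0.06) lower, with limma adjusted p-values of 0.24, 0.121 and 0.433. These 2 higher and 1 lower of 17 stand beside 5.89% and 3.75% of all genes. The median over the 17 genes was 0.11 at 15 °C and -0.12 at 25 °C, beside 0.04 and -0.03 over all genes. Actin and tubulin genes are near-identical in part, and reads may have been split among them.

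Of the 17 actin and tubulin genes, 4 were called higher and 0 lower at 15 °C than at 25 °C in *mdt-15(-)*. Of all genes, 12.9% were called higher and 5.86% lower there. In *mdt-15(-)*, *tba-7* (1.66, SE 0.32, limma-based adjusted p = 0.0247), the tubulin genes of touch receptor neurons *mec-7* (0.86, SE 0.23) and *mec-12* (0.75, SE 0.26), and the beta-tubulin gene *ben-1* (0.71, SE 0.20) had calls above 0, that is, higher at 15 °C. After adjustment *tba-7* alone of these passed, with limma-based adjusted p-values of 0.0626 for *mec-7*, 0.128 for *mec-12* and 0.0765 for *ben-1*. In wild type the alpha-tubulin gene *tba-9* was called lower at 15 °C (-0.93, SE 0.38, limma adjusted p = 0.402). This is 1 of 17 lower and 0 higher, beside 6.26% and 3.24% of all genes. The direct test of the *mdt-15(-)* effect between temperatures called *tba-4* (1.36, SE 0.60) and *tba-7* (1.29, SE 0.50) higher, both with a limma-based adjusted p of 0.711. Here 2 of 17 were higher and 0 lower, beside 5.29% and 1.64% of all genes.

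The listed genes of the cytosolic HSP70 and HSP90 machinery, which shares clients with CCT, had medians close to those of the ring. The list also holds *hsf-1*, which encodes a transcription factor of chaperone genes and not a chaperone. Inducible cytosolic HSP70 genes were left out of this list. The paper reports such genes as highly induced in the mutant in the cold. The values below therefore hold for the listed genes and not for all cytosolic HSP70 genes. Of the list's 11 measured genes, all 11 were below 0 in *mdt-15(-)* relative to wild type at each temperature, except that *chn-1* at 25 °C lay above 0 when centred on all genes or on genes of average log2 cpm 6 to 9, with a median of -0.56 at 15 °C and -0.26 at 25 °C, against ring medians of -0.52 and -0.32. Of all genes, 48.1% were below 0 at 15 °C and 53.2% at 25 °C. Among genes of average log2 cpm 6 to 9 the shares were 57.9% and 66.0%. Exactly 1 of the 11 genes was called at each temperature, the J-domain cochaperone gene *dnj-13*, with a log2 difference of -0.69 (SE 0.27, limma adjusted p = 0.149) at 15 °C and -0.63 (SE 0.27, limma adjusted p = 0.46) at 25 °C. Of all genes, 5.76% were called lower at 15 °C and 3.75% at 25 °C. The HSP90 gene *daf-21*, named after its values were seen, had -0.56 (SE 0.23, limma adjusted p = 0.163) at 15 °C, under the fold limit. No gene of this list was called between temperatures in either genotype. Beside this stand 12.9% of all genes called higher and 5.86% lower in *mdt-15(-)*, and 3.24% higher and 6.26% lower in wild type.

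Mitochondrial quality control genes, the neighbours of *hsp-60* in function, were called in 0 of 11 cases for chaperones and proteases in every comparison. Over all genes the share called in 1 direction ran from 1.64% to 17.3%, depending on the comparison. Uncalled estimates between temperatures in this list reached 1.32 in *mdt-15(-)* and 1.93 in wild type. The 0 calls therefore do not show that these genes were unchanged. The mitochondrial HSP70 gene *hsp-6*, the usual companion of *hsp-60* as a reporter and named here for that reason, was at -0.05 (SE 0.44) at 15 °C and 0.15 (SE 0.43) at 25 °C in *mdt-15(-)* relative to wild type. The list median was -0.03 at 15 °C and 0.05 at 25 °C. Centred on genes of average log2 cpm 6 to 9, *hsp-6* lay above 0 at 15 °C and the list median there was 0.06. Of 4 measured regulators of the mitochondrial unfolded protein response, *atfs-1* and 2 others were called in no comparison. The bZIP gene *zip-3* was called lower at 15 °C than at 25 °C in wild type (-1.92, SE 0.84, limma adjusted p = 0.464), beside 6.26% of all genes.

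Tissue markers moved in the same comparison as the ring genes. All 10 germline and oocyte markers were below 0 in *mdt-15(-)* relative to wild type at 15 °C, with a median log2 difference of -0.90, and 4 were called lower: the eggshell proteoglycan genes *cpg-1* (-0.96, SE 0.26) and *cpg-2* (-0.94, SE 0.31), the yolk receptor gene *rme-2* (-0.71, SE 0.22) and the RNA-binding protein gene *puf-5* (-0.86, SE 0.29). Their limma adjusted p-values ran from 0.0508 to 0.0998. In this comparison 48.1% of all genes were below 0 and 5.76% were called lower. Among genes of average log2 cpm 6 to 9 the shares were 57.9% and 7.32%. The summed level of the 10 markers was 2107 cpm in *mdt-15(-)* and 3696 cpm in wild type at 15 °C, and 2458 cpm in *mdt-15(-)* and 3416 cpm in wild type at 25 °C. At 25 °C 9 of 10 were below 0, with a median of -0.39, and *cpg-1* was called lower (-0.60, SE 0.26). At that temperature 53.2% of all genes were below 0 and 3.75% were called lower. All 10 germline and oocyte markers listed had passed the expression filter, and their part in the ring result was not tested.

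Markers of other tissues gave different pictures. In *mdt-15(-)* at 15 °C, 17.3% of all genes were called higher than in wild type and 5.76% lower. Only 3 of the 5 listed sperm markers were measured. All 3 were called higher in *mdt-15(-)* at 15 °C, *spe-11* (1.73, SE 0.66), *spe-26* (1.30, SE 0.49) and *spe-38* (2.06, SE 0.84), with limma adjusted p-values of 0.137, 0.132 and 0.161. Their summed level was 29.7 cpm in *mdt-15(-)* and 9.32 cpm in wild type. Their median level was 2.13 log2 cpm in *mdt-15(-)* and 0.83 in wild type at 15 °C, and 0.38 in each genotype at 25 °C. Levels this close to the filter of 1 cpm mean that they may have passed it only through the group where they are high. The 3 of 3 therefore cannot be read as a result about sperm genes. The muscle myosin gene *myo-3* was called higher (1.31, SE 0.27, limma adjusted p = 0.0169), as 1 of 5 muscle markers. Of 5 intestinal markers the transcription factor gene *elt-2* was called higher (0.88, SE 0.36) and the yolk protein gene *vit-5* lower (-0.87, SE 0.34). Of 4 neuronal and 4 hypodermal markers 0 were called, with medians of 0.16 and 0.93. At 25 °C 0 markers of these 5 tissues were called in *mdt-15(-)* relative to wild type. Of all genes, 3.75% were called lower there and 5.89% higher. The part of these tissues in the ring result was not tested.

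**Figure D5:**
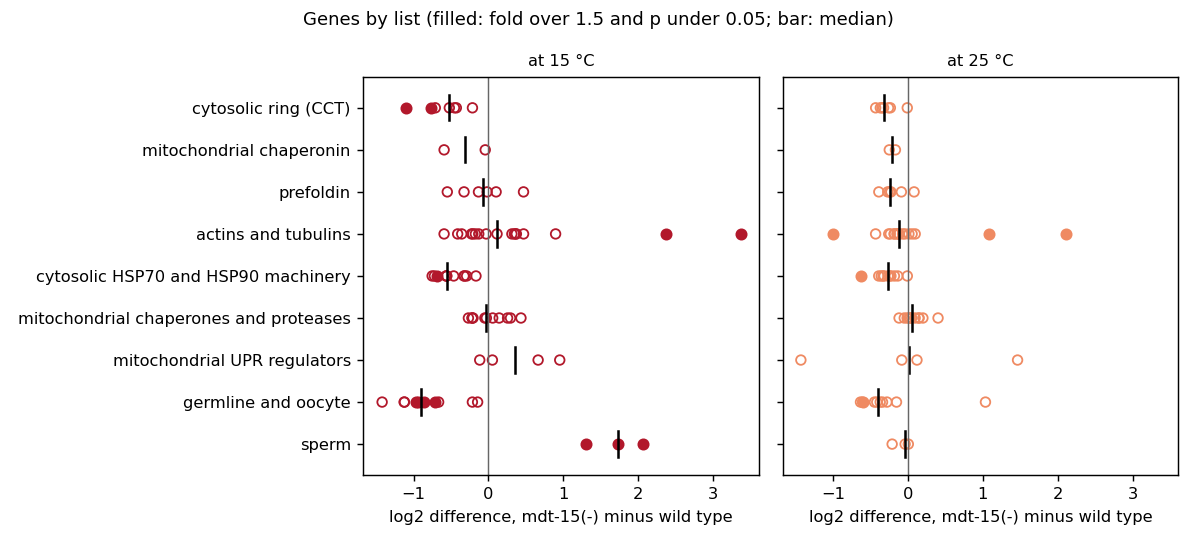
Log2 difference, *mdt-15(-)* minus wild type, of each gene in 9 lists at 15 °C (left) and 25 °C (right); filled points passed a fold of 1.5 with an unadjusted p below 0.05 and the bar is the list median. At 15 °C the ring median (-0.52) and that of the listed HSP70 and HSP90 machinery (-0.56) lie between those of the prefoldin genes (-0.08) and of the germline and oocyte markers (-0.90). The HSP70 and HSP90 list leaves out inducible HSP70 genes.

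Between temperatures, most of the intestinal markers were called in *mdt-15(-)*: 4 of 5 were lower at 15 °C, along with 2 of 3 sperm markers and 1 of 5 muscle markers higher, beside 5.86% of all genes called lower and 12.9% called higher. The sperm markers *spe-11* (1.89, SE 0.67) and *spe-26* (1.75, SE 0.52) and the pharyngeal myosin gene *myo-2* (1.25, SE 0.50) were higher at 15 °C. The limit set by the expression filter holds for these sperm markers here as well. In the same comparison the intestinal esterase gene *ges-1* (-0.60, SE 0.20) and the yolk protein genes *vit-2* (-0.87, SE 0.29), *vit-5* (-1.24, SE 0.34) and *vit-6* (-0.88, SE 0.26) were lower. In wild type 1 of 10 germline and oocyte markers, *oma-2*, was higher at 15 °C (1.42, SE 0.61), and 2 of 5 intestinal markers, *ges-1* (-0.76, SE 0.20) and *vit-6* (-0.64, SE 0.26) were lower. Of all genes in wild type, 3.24% were called higher and 6.26% lower. None of these calls between temperatures had an adjusted p below 0.05, and 0 of 9 chaperonin genes were called beside them.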

How the data were processed

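Whole-animal RNA-seq of 12 libraries (3 per group) was analysed. Per the labels and the methods, paired-end reads were mapped by the authors with HISAT2 2.0.5 (genome build ce11) and quantified with StringTie 1.3.3 and Ballgown 2.0.0; genes under 1 cpm were left out before limma 3.24.15 and edgeR 3.10.5. The deposited tables hold the authors' own comparisons only: log2 fold changes and log2 average expression, moderated t and B scores, and p-values, from limma on voom values. They hold no value per library. These columns were used as the measurements, with signs turned to *mdt-15(-)* minus wild type and 15 °C minus 25 °C, and no fit was made on counts. The sign convention was checked against the study's own column headings.

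Standard errors were the log2 fold change divided by t, and the degrees of freedom (10.4) were recovered from t and p. The degrees of freedom and the gene number differ slightly between the genotype table at 15 °C (12443 genes) and the other tables (12749 genes), so they come from at least 2 fits with different gene filters. Average expression differed between them by 0.000293 on the log2 scale. The difference of the *mdt-15(-)* effects, the temperature effect in *mdt-15(-)* and the group levels were computed by combining the 3 comparisons across these fits, as if their standard errors came from 1 fit, and are called limma-based; their p-values were two-sided and adjusted by Benjamini-Hochberg over 12443 genes. The formulas were tested on simulated data with limma 3.58.1. That simulation used 1 unweighted fit, so combining comparisons across fits on voom values was not checked by it. The computations used Python 3.11.15, numpy 2.4.6, pandas 2.3.3 and scipy 1.17.1. Calls required a fold over 1.5 and an unadjusted p below 0.05, the study's threshold. Coordinates and exon lengths came from Ensembl release 115.

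The genes and lists were chosen with earlier results of these data known. All 9 chaperonin genes were named, with every list gene called in a comparison where 5 or fewer of its list were, otherwise the 2 with the largest absolute t, and the 3 genes nearest in pattern to the ring median and to *hsp-60*; exceptions are named as such. *trap-1*, which in *C. elegans* encodes a translocon-associated protein, was removed from the mitochondrial list. One alternative, centring on genes of average log2 cpm 6 to 9, was chosen after seeing the data.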

Additional observations from a re-analysis of the deposited data

How the results depend on the processing

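At 15 °C, 2 chaperonin genes were called in *mdt-15(-)*. The count was 1 (*cct-1*) with an adjusted p below 0.05, whether adjusted over all genes or over genes of average log2 cpm of at least 1, and 1 (*cct-2*) with a fold over 2; with no fold limit *cct-4* was added, which made 3, beside 7.43% of all genes lower. With no fold limit, 1 gene (*cct-4*) was called between temperatures in wild type, beside 3.9% of all genes higher, where 0 were called with it. In the other comparisons the count stayed at 0 under every threshold, centring, standard error and degrees-of-freedom setting run. The ring median at 15 °C was -0.56 centred on all genes, -0.43 centred on genes of average log2 cpm 6 to 9 and -0.60 as a mean; the median between temperatures in *mdt-15(-)*, -0.08, became 0.00159 under the centring on abundant genes. Uncalled estimates near 0 changed sign: *cct-8* at 25 °C became 0.02 centred on all genes and 0.09 on abundant genes, and on abundant genes Y22D7AL.10 became 0.05 in *mdt-15(-)* relative to wild type at 15 °C and 0.01 between temperatures in wild type. No paired analysis was possible because the tables used hold no value per library, and for the same reason the replicate block and leaving out each replicate were not run, so whether 1 library decides the calls of *cct-1* and *cct-2* is not known. Depth per library is unknown. The width of the intervals limits *cct-6* and *cct-8*, whose 95% intervals at 15 °C allow changes of 2.00-fold and 2.56-fold on either side of the estimate.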

Other observations

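The 3 genes whose log2 differences were nearest to the ring median over the 3 deposited comparisons were the nuclear envelope gene *lem-2* (distance 0.0421), Y48G10A.4 (0.0435) and the ribosomal protein gene *rps-28* (0.0445). Nearest to *hsp-60* were *rae-1* (0.0418), *ztf-17* (0.0489) and *pph-4.2* (0.0525). *rps-28* had log2 differences of -0.48 and -0.32 between *mdt-15(-)* and wild type at 15 °C and 25 °C, and of 0.30 between 15 °C and 25 °C in wild type. These distances are Euclidean, on the log2 scale, and are smaller than the standard errors of the genes themselves. Within a distance of 0.2 there were 223 genes around the ring median and 86 around *hsp-60*, so the patterns are shared by many genes of various expression levels.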
